A study of Mus musculus with 8 samples.

Results

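MHC class II-high border macrophages were 1342 of the 46314 cells that passed filters in 8 libraries, or 2.90% of all cells. The cells were chosen by their own transcripts. A cell counted as a border macrophage when it held at least 5 UMIs (unique molecular identifiers, which count captured transcripts) of the complement genes C1qa, C1qb and C1qc together, at least 1 UMI of Mrc1, Pf4 or Stab1, fewer than 2 of the microglial genes P2ry12, Tmem119 and Sall1, and no UMI of the B cell gene Cd79a. It was MHC class II-high when H2-Aa, H2-Ab1 and H2-Eb1 made up at least 0.2% of its gene UMIs. The other 272 border macrophages are called MHC class II-low. The 1342 cells are called the members.

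CD45.2+ cells were sorted from the brains of perfused mice and profiled with the 10x Genomics 5′ kit, with hashtag antibodies that gave each cell 1 of 4 tags. There was 1 library for each of 8 conditions, and all mice were 16 weeks old by the sample labels. WT libraries came from C57BL/6J mice and APP libraries from APPNL-G-F mice, a knock-in strain whose own App gene carries the humanized amyloid-beta sequence with the Swedish, Arctic and Iberian mutations. Control mice drank water. Mice with acute colitis received 2% dextran sulfate sodium (DSS) for 1 week. Mice with chronic colitis received 3 cycles of 2% DSS followed by water, 5 days each. Mice with food allergy were sensitized with ovalbumin and alum by injection and then fed ovalbumin for 7 days. The study's legends give more than 1 sample for WT control and for each APP group. A hashtag antibody was added to each sample, and the sources used here do not say which mouse or preparation each of the tags stood for. The tissue was labelled as brain parenchyma.

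Border macrophages live in the meninges, the perivascular spaces and the choroid plexus, outside the parenchyma where microglia reside. They take up material from the cerebrospinal fluid and blood interface, and part of them carry MHC class II, the surface complex that presents peptides to CD4 T cells. Cells with high Lyve1, Folr2 and Cd163 and little MHC class II are commonly set against cells with high MHC class II and Ccr2, the receptor for monocyte recruitment. Transcription of the MHC class II genes depends on CIITA, a coactivator that is recruited to the promoter by factors bound to conserved elements, the X and Y boxes. The 2 upstream sequences below are those of H2-Aa and H2-Eb1, which helped to define the members. No sequence was at hand for H2-Ab1, which also defined them. The sequences are the 250 bases before the RefSeq start sites, on GRCm38.p6. Capitals mark matches to the Y box core ATTGG, to GNAACNG from the X1 box and to TGACG from the X2 box, searched on both strands.
H2-Aa, chr17:34287824-34288073, minus strand: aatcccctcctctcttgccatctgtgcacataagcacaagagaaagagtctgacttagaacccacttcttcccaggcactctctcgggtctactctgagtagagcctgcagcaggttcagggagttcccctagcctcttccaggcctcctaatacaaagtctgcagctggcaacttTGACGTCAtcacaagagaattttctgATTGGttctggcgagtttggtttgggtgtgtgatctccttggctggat
H2-Eb1, chr17:34305617-34305866, plus strand: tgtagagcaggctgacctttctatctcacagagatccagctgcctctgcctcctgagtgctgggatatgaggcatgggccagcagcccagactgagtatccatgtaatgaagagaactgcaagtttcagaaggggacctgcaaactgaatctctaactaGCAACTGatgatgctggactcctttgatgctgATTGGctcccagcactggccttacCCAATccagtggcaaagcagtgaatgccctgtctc

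In the H2-Aa window, ATTGG began 48 bases before the start site, and TGACG began 74 bases before it and overlapped a match on the other strand. In the H2-Eb1 window, ATTGG began 59 bases before the start site and GNAACNG 91 bases before it, and a further ATTGG lay on the other strand 35 bases before it. The H2-Aa window had no match to GNAACNG and the H2-Eb1 window none to TGACG, so neither held all 3. These letters are common. ATTGG stood in 33.9% of the 32851 mouse promoter windows of this length, GNAACNG in 35.9%, TGACG in 17.8%, and all 3 in 2.34%. A match is a description of the sequence and was not tested as a binding site.

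Libraries held 26988646 to 56307389 gene UMIs over all barcodes, and the members had a median of 3716.5 UMIs and 1514.5 genes. Across libraries, 1278 of 45004 distinct barcodes passed in more than 1 library, and 84 of the barcodes of members also passed elsewhere. Hashtag groups fell apart by the summed level of 10 immediate-early genes (Fos, Jun, Egr1 and others that are induced within minutes) in T cells. This level was 727 to 1726 CPM (UMIs of a gene per 1000000 gene UMIs) in 14 groups and 3184 to 6702 CPM in the other 16, of which every library had 2. The high groups held 1310 of the 1342 members, or 97.6%, although they held 30014 of the 46314 cells. Fibroblast RNA, at least 3 UMIs of 6 genes, was found in 268 cells of the high groups and in 2 cells of the low groups. Whether the mice, the tissue or the handling differed between the hashtag groups cannot be told apart.

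Most border macrophages were far from the cutoff that defined the members. Of 1614 border macrophages, 135 had no UMI of H2-Aa, H2-Ab1 or H2-Eb1 at all, and 211 were under 0.1%. Just outside the cutoff, between 0.1% and 0.2%, were 61 cells with a median of 0.156% and 2576 CPM of Cd74. Just inside, between 0.2% and 0.3%, were 26 cells with a median of 0.253% and 3239 CPM of Cd74, the invariant chain that escorts MHC class II through the cell. Between 1% and 5% lay 510 cells from 1% to 3% and 466 cells from 3% to 5%, and 167 cells exceeded 5%. The median over all members was 2.86%. Library medians ran from 2.30% in WT control to 3.41% in APP allergy, and the quartiles of the libraries overlapped.

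**Figure D1:**
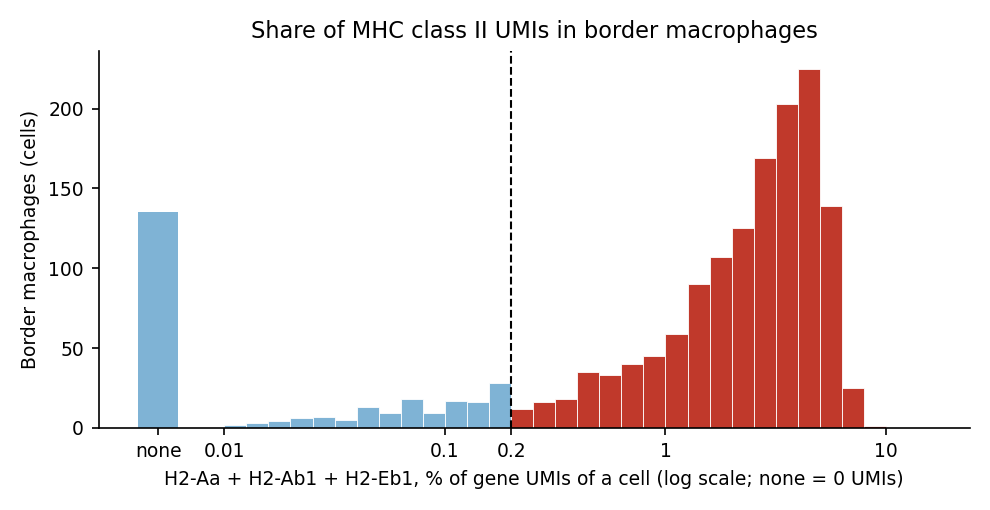
Number of border macrophages (y axis) by the share of their gene UMIs that came from H2-Aa, H2-Ab1 and H2-Eb1 (x axis, percent, log scale, with cells without any such UMI at the left). The dashed line is the cutoff of 0.2% that separates the 272 MHC class II-low cells in blue from the 1342 members in red, and few cells lie beside it.

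The label of border macrophages was checked with marker genes that the gate did not use. Apoe, a lipid carrier, ran from 8656 to 17882 CPM. It was at 15922 CPM over the 58 cells gated as microglia, so it does not tell border macrophages from microglia. Csf1r, the receptor for the macrophage growth factor, ran from 564 to 1187 CPM. Ms4a7 ran from 191 to 473 CPM, and it was at 1.45 CPM in the 768 cells gated as Cd209a+ dendritic cells. Lyve1, at 3.41 to 94.4 CPM, and Timd4, at 0 to 12.3 CPM, were low throughout. The gate itself shaped Mrc1, the mannose receptor, at 429 to 1091 CPM, and kept P2ry12 at 8.92 to 44.5 CPM, so these levels describe the choice of cells and check nothing.

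RNA of other lineages was present in the members and differed between libraries. The 8 genes of the neutrophil list summed to 46.5 CPM in WT control, 180 in WT acute, 149 in APP allergy and 734 in APP chronic. They summed to 6709 CPM in APP control, 32427 in WT chronic, 37742 in APP acute and 49828 in WT allergy. The T cell list summed to 332 to 650 CPM and the B cell list to 154 to 250 CPM, with Cd79a at 0 by the gate. The erythroid list reached 1782 CPM in APP control and was at 0 to 5.13 CPM elsewhere. Of the members, 215 (16.0%) had at least 2 UMIs of Cd3d, Cd3e and Cd3g together or at least 0.5% of their UMIs from the neutrophil list, and 1127 remained without them. Values without these cells are given below for some of the results.

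The share of members among cells was highest in the acute colitis libraries of both genotypes. The WT acute library stood at 7.72% (exact 95% interval 6.96 to 8.55), WT allergy at 5.43% (4.79 to 6.13), WT control at 2.02% (1.69 to 2.38) and WT chronic at 1.28% (0.993 to 1.62). The APP acute library stood at 3.42% (2.99 to 3.90), APP control at 2.16% (1.83 to 2.54), APP chronic at 1.88% (1.55 to 2.27) and APP allergy at 1.16% (0.915 to 1.45). These intervals cover counting error in 1 library alone. Cells of the low hashtag groups count in this share. In APP acute, where 1 low group held 3218 cells, the share was 6.92% in the high groups alone, and in WT acute it was 7.99%.

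Within the 2 high immediate-early groups of each library, the share was 3.07% and 3.85% in WT control and 7.08% and 9.27% in WT acute. It was 2.99% and 5.45% in APP control and 6.79% and 7.01% in APP acute. The acute groups lay above the control groups in each genotype, with a difference in means of 4.71 percentage points in WT and 2.68 in APP. In chronic colitis the high groups were at 0.988% and 1.97% in WT and at 2.63% and 3.62% in APP. In food allergy they were at 4.605% and 6.97% in WT and at 1.82% and 2.60% in APP. The allergy groups thus lay above control in WT and below control in APP. With 2 groups against 2, the smallest two-sided exact permutation p is 0.333, so none of these differences could pass a test.

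**Figure D2:**
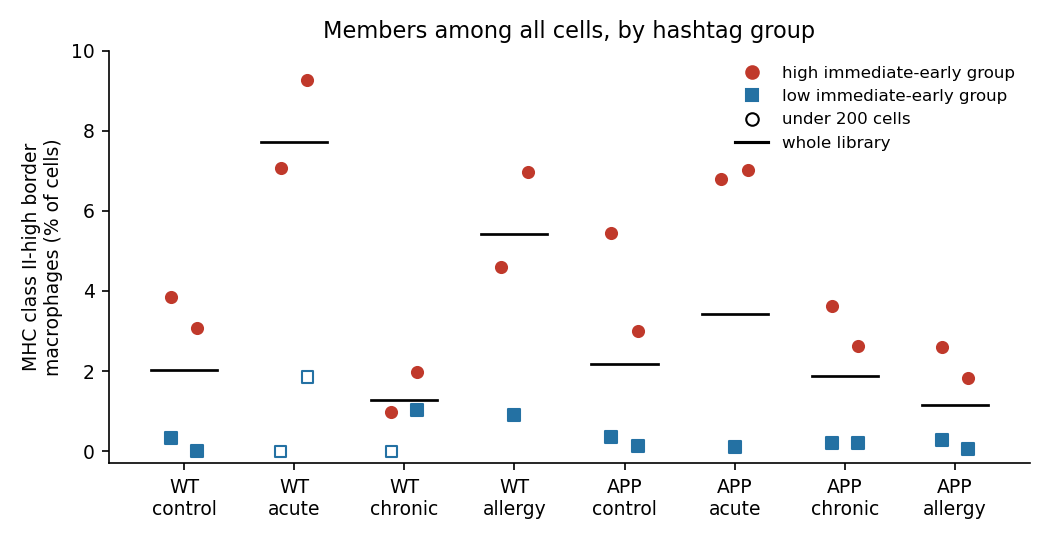
Share of MHC class II-high border macrophages among cells (y axis, percent) in each hashtag group of the 8 libraries (x axis). Red circles are the 16 high immediate-early groups and blue squares the 14 low groups, open symbols are groups under 200 cells, and black lines are whole libraries. The red circles of both acute colitis libraries, at 6.79% to 9.27%, stand above those of the control libraries, at 2.99% to 5.45%.

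Over all hashtag groups of at least 200 cells, none of 7 comparisons passed. WT acute, with 2 such groups, averaged 8.17% ± 1.55 (SD, n = 2) against 1.81% ± 1.94 (SD, n = 4) in WT control, with an exact permutation p of 0.0667, the smallest that these numbers allow, and a Benjamini-Hochberg adjusted p of 0.467. Both low groups of WT acute were under 200 cells, so its mean holds high groups alone. APP acute averaged 4.63% ± 3.93 (SD, n = 3) against 2.23% ± 2.51 (SD, n = 4) in APP control, with an exact permutation p of 0.314. The other 5 comparisons had exact permutation p-values from 0.257 to 0.800. APP control and WT control differed by 0.41 percentage points, with an exact permutation p of 0.800. Over the 4 pairs of libraries, APP was lower than WT by a mean of 1.95 percentage points, in 2 of 4 pairs, with an exact sign-flip permutation p of 0.5, where 4 pairs cannot go below 1 in 8. Over the high groups alone the mean difference was -0.59 percentage points (exact sign-flip permutation p = 0.75).

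Most border macrophages were MHC class II-high in every library. The high fraction was 77.3% of 176 border macrophages in WT control, 85.6% of 404 in WT acute, 82.9% of 82 in WT chronic and 90.2% of 276 in WT allergy. It was 82.9% of 175 in APP control, 77.3% of 278 in APP acute, 81.2% of 133 in APP chronic and 83.3% of 90 in APP allergy. In the high groups of WT mice, control stood at 77.4% and 78.0%, below the 83.5% and 87.7% of acute colitis, the 83.8% and 84.6% of chronic colitis and the 85.9% and 92.5% of food allergy. In APP mice, control stood at 78.8% and 94.4%, acute colitis at 75.9% and 80.0%, chronic colitis at 82.7% and 88.2% and food allergy at 83.7% and 100%, and the groups overlapped. A further APP control group had 6 members among 15 border macrophages and was averaged in the test. The exact permutation p was 0.333 or higher in all 7 comparisons, and the smallest adjusted p was 0.7. The smallest exact permutation p that these group numbers allow is 0.333 within WT and 0.1 in the other comparisons, so none could pass.

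MHC class II-low border macrophages of the same libraries were compared with the members gene by gene. These ratios describe cells that were split by MHC class II UMIs, and no test was made. Among 3178 genes with at least 50 CPM in either class, 116 (3.65%) were higher in the members in 8 of 8 libraries. Another 79 (2.49%) were higher in 0 of 8, where a library with a gene at 0 in both classes counts as not higher. Of the 7 genes of the MHC class II pathway at that level that the gate did not use, 5 were higher in the members in every library. Cd74 was at 24584 to 38071 CPM in members and 609 to 2012 CPM in MHC class II-low cells, while free RNA in empty droplets held 3222 CPM. Ciita, which encodes the coactivator itself, was at 41.5 to 140 CPM against 0 to 7.48 CPM. H2-DMa, a chaperone subunit that loads peptides, was at 501 to 726 CPM against 45.7 to 272 CPM, and its partner H2-DMb1 at 592 to 797 CPM against 33.7 to 233 CPM. Ctss, the cathepsin that trims the invariant chain, was higher in 8 of 8 libraries by a median of 0.83 on the log2 scale of CPM with 5 added. Ifi30 and Lgmn, which act on antigens in lysosomes, had median log2 ratios of 0.30 and 0.09, each higher in 5 of 8 libraries.

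Several genes outside the MHC class II pathway were also higher in the members. Of the 12 genes of the transcription factor list at 50 CPM, 2 were higher in 8 of 8 libraries. Clec4b1, a C-type lectin, was at 140 to 238 CPM in members and 0 to 32.1 CPM in MHC class II-low cells. Mgl2, a galactose-binding lectin known from dendritic cells and macrophages, was at 457 to 902 CPM against 18.3 to 381 CPM. Batf3, a transcription factor of dendritic cells, was at 39.3 to 116 CPM against 0 to 30.8 CPM. Cxcl16, the ligand of CXCR6, was at 140 to 306 CPM against 9.13 to 111 CPM. Cd72, Slamf7 and Slamf9, receptors of the immune cell surface, Naaa, a lipid amidase, and Fcgr4, an activating IgG receptor, were also higher in 8 of 8 libraries. Axl, a receptor for apoptotic cells, was higher in 7 of 8 libraries, with a median log2 ratio of 1.92. Il1b, which encodes the cytokine interleukin-1 beta, had a median log2 ratio of 2.09 and was higher in 7 of 8. Ccr2 had a median log2 ratio of 1.31 and was higher in 7 of 8. Cd209a, a lectin that also marks monocyte-derived dendritic cells, had a median log2 ratio of 2.41 and was higher in 7 of 8.

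Genes of resident border macrophages were lower in the members. Of the 16 genes of the border macrophage identity list with 50 CPM that the comparison could use, 0 were higher in 8 of 8 libraries and 5 were lower in 8 of 8, with a list median of -0.77 against -0.06 over all genes. Lyve1, the hyaluronan receptor, was at 3.41 to 94.4 CPM in members and 123 to 492 CPM in MHC class II-low cells. Folr2, a folate receptor, had a median log2 ratio of -2.18, Cd163, the haemoglobin scavenger receptor, of -1.34, F13a1, coagulation factor XIII, of -1.10 and Cbr2, carbonyl reductase, of -0.83, and each was lower in 8 of 8 libraries. Pf4 and Stab1, which the gate used, were also lower in 8 of 8. Fcna, a ficolin of the lectin complement pathway, was at 24.6 to 100.6 CPM in MHC class II-low cells and at 4.41 CPM over all members. Apoe did not follow this axis, with 14269 CPM over all members and 14219 CPM over all MHC class II-low cells. Csf1r and Ms4a7 were also close, with median log2 ratios of -0.06 and 0.01. Fbln1, a matrix gene of fibroblasts, was at 1.52 CPM over all members and 85.0 CPM over MHC class II-low cells, and S100a8 was at 6773 and 28108 CPM. The neutrophil list summed to 98.5 to 266554 CPM in the MHC class II-low cells of a library. Ratios of 30 named genes were recomputed without cells holding T cell, B cell or neutrophil RNA, and with a stricter gate on Mrc1, Pf4 and Stab1. Of these values, 80 counted as the same and 10, of 6 genes, as moved. How much fibroblast or neutrophil RNA contributed to each ratio was not tested.

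**Figure D3:**
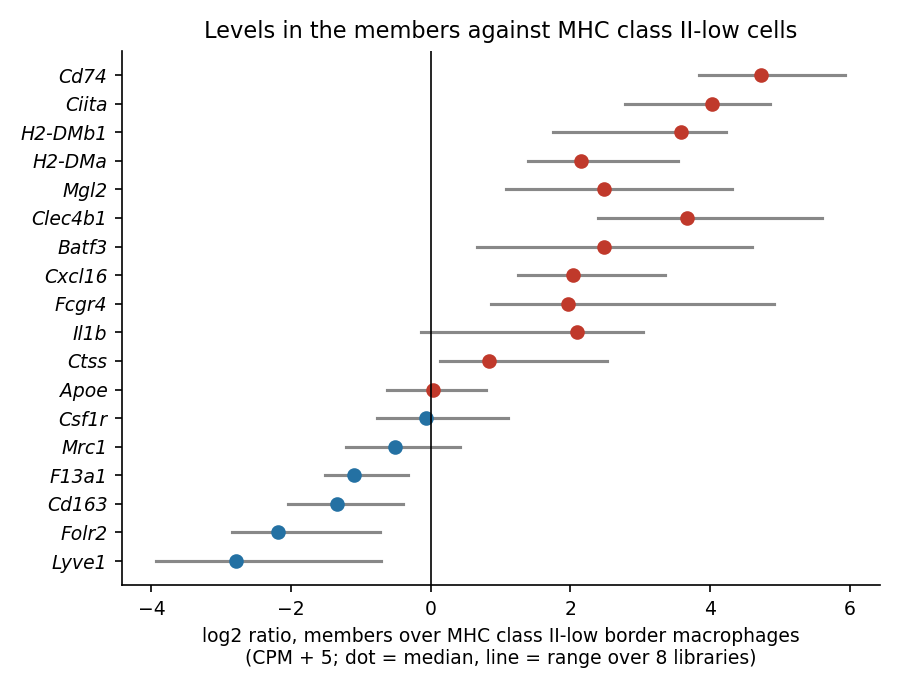
Log2 ratio of CPM (with 5 added) in the members over MHC class II-low border macrophages (x axis) for 18 genes (y axis). Dots are medians over 8 libraries and lines the range. Cd74, Ciita and H2-DMb1 lie to the right in every library, Apoe lies at 0, and Cd163, Folr2 and Lyve1 lie to the left in every library.

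Against the other antigen-presenting cells of the same libraries the members are described by pooled levels. Cd74 was at 31099 CPM in the members, 35717 CPM in the Cd209a+ dendritic cells and 16866 CPM in the 58 gated microglia. In these few microglia Cd74 ran from 5131 to 34067 CPM between libraries. The neutrophil gene S100a8 was at 15727 CPM in them and at 6773 CPM in the members. Apoe was at 93.6 CPM in the dendritic cells, and H2-DMb2, H2-Oa and Flt3, the dendritic cell growth factor receptor, at 215.5, 219.7 and 129.8 CPM. In the members, H2-DMb2 was at 16.1 to 31.9 CPM, H2-Oa at 19.8 to 42.3 CPM and Flt3 at 10.8 to 25.9 CPM. The dendritic cells were chosen to lack C1q, so the contrast is a description.

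The members were uneven among themselves. Clustering divided them into 6 sub-clusters, described here by their leading genes without a test. Sub-cluster 1, 365 cells, was led by Cd209f, Cd209g, Folr2, Lyve1 and Cd163, and it held Mrc1 at 2226 CPM and Cbr2 at 1657 CPM. Sub-cluster 2, 324 cells, was led by Tmem86a, Tnfsf12, Lilra5, Itgb5 and Trem2, which were at most 1.03 higher on the log2 scale than in the rest. Sub-cluster 3, 207 cells, was led by Ear2, Cd209a, Tnip3, Olfm1 and Naaa, and held Ccr2 at 555 CPM against 87.7 CPM in sub-cluster 1. Sub-cluster 4, 184 cells, was led by Ifit2, Ifit3, Ccrl2, Oasl1 and Ccl4, mostly genes induced by type I interferon, and held Il1b at 1886 CPM. Sub-cluster 5, 168 cells, was led by Ccl5, Il2rb, Xcl1, Nkg7 and Ctsw, genes of T cells and natural killer cells, and 81.5% of its cells were among the 215 cells with T cell or neutrophil RNA. Sub-cluster 6, 94 cells, was led by Ngp, S100a9, Camp, S100a8 and Retnlg, genes of neutrophils, and 70.2% of its cells were among those 215. Sub-clusters 5 and 6 also had the highest median depths, 6704 and 9640 UMIs per cell. H2-Aa was at 8559 CPM in sub-cluster 1 and 13313 to 13790 CPM in sub-clusters 2, 3 and 4.

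In the members, 14 genes passed the test in acute colitis. Counts were summed over the members of each library and tested in edgeR's quasi-likelihood model with genotype and treatment as terms, so that each coefficient was estimated over both genotypes and 3 residual degrees of freedom. Of 7417 genes, 14 (0.189%) passed a Benjamini-Hochberg adjusted p of 0.05, 6 higher (0.0809%) and 8 lower (0.108%). The count ran from 1 without APP control to 83 without APP acute. It was 4 without WT control, 7 without WT allergy, 42 without APP chronic and 43 without WT chronic. Of the 14 genes, 0 were still called without APP control, 1 without WT control, 5 without WT acute and 5 without WT allergy. They numbered 12 without APP allergy, 13 without APP acute and 14 without either chronic library. The estimates kept their direction, with Tnfsf9, for example, between -2.44 and -3.33 on the log2 scale over all alternatives. When the 215 cells with T cell or neutrophil RNA were left out, 125 of 6156 genes passed (2.03%), 47 higher (0.763%) and 78 lower (1.27%), and 13 of the 14 were among them.

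Of the 6 genes that rose in acute colitis, Pf4 and Fcrls belong to the border macrophage identity list, and the gate had used Pf4, whose values are a description. Pf4, a chemokine of platelets that is also a marker of border macrophages, was at 285 CPM in WT control, 1220 in WT acute, 511 in WT chronic and 317 in WT allergy, and at 414, 1718, 1176 and 622 CPM in the same order in APP. Both acute libraries exceeded the 6 others. Fcrls, a scavenger-type receptor shared with microglia, was at 113, 420, 146 and 117 CPM in WT control, acute, chronic and allergy and at 152, 437, 269 and 196 CPM in APP. It rose by 1.72 on the log2 scale (SE 0.24, edgeR adjusted p = 0.0398), and again both acute libraries were above all others. Gpr34, a lysophosphatidylserine receptor, was at 76.9 and 75.9 CPM in the acute libraries and at 14.3 to 54.4 CPM elsewhere. Igfbp4, a binding protein of insulin-like growth factors, was at 437 and 405 CPM in the acute libraries and 85.9 to 269 CPM elsewhere, a rise of 1.98 (SE 0.28, edgeR adjusted p = 0.0398). Ccl24, an eosinophil-attracting chemokine made by macrophages, was at 67.9 and 116 CPM in the acute libraries and at 6.14 to 54.4 CPM elsewhere, the largest rise at 3.32 (SE 0.36, edgeR adjusted p = 0.0137). Bank1, named after its values were seen and a scaffold protein best known in B cells, was at 99.2 and 91.3 CPM in the acute libraries and at 20.5 to 39.5 CPM elsewhere.

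Of the 16 tested genes of that list that the gate did not use, 14 had positive estimates and 1 passed, Fcrls, with a median of 0.88 against 0.02 over all genes. Of the 14 such genes with at least 50 CPM, 9 were higher in both acute libraries than in the 6 others, against 8.05% of all 2744 genes of that level. These were Siglec1, Fcrls, Folr2, Cd209f, Gas6, Cbr2, F13a1, Dab2 and Csf1r. Folr2 was at 109 and 159 CPM in the acute libraries and 5.46 to 104 CPM elsewhere, with an estimate of 2.40 (SE 0.41, edgeR adjusted p = 0.0628). Gas6, the ligand of Axl, was at 221 and 212 CPM against 49.1 to 131 CPM, with an edgeR adjusted p of 0.058. Cd209f, a lectin of this lineage, was at 167 and 179 CPM against 3.58 to 63.4 CPM, with an edgeR adjusted p of 0.156. Lyve1 and Cd163 did not separate, and their estimates were 0.49 and 0.43. Summed over the 17 ungated genes, the list was at 5761 and 5546 CPM in the acute libraries and 2393 to 4593 CPM elsewhere. In the 16 hashtag groups with at least 10 members, it was at 5139 to 5963 CPM in the 4 acute groups and 2240 to 4757 CPM in the 12 others. Without the 215 cells, 6 of the 16 genes passed, all higher, namely Fcrls, Folr2, Cd209f, Cd209g, Gas6 and Cbr2. With sums per hashtag group, which treats groups of 1 library as separate, 188 of 4959 genes passed (3.79%) with 94 higher (1.9%) and 94 lower (1.9%), and 9 of the 16 were among the higher ones. The sub-cluster with the most members was sub-cluster 1, which Cd209f and Folr2 led, in both acute libraries. It was sub-cluster 3 in WT chronic and sub-cluster 2 in the other 5 libraries. In sums over members, a higher level per cell and more cells of the kind in sub-cluster 1 cannot be told apart.

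The microglia list moved with these genes. Of its 5 tested genes that the gate did not use, all 5 had positive estimates and 2 passed, Fcrls and Gpr34, with a median of 1.72. Fcrls also stands in the border macrophage identity list, so its call is the one given above, and the median is its own estimate. Summed over the 7 ungated genes, Fcrls among them, the list was at 1197 and 1128 CPM in WT and APP acute colitis and at 516 to 946 CPM elsewhere. Siglech, a lectin of microglia and plasmacytoid dendritic cells, was at 34.9 and 44.1 CPM in the acute libraries and at 0 to 14.8 CPM elsewhere. P2ry12, which the gate limited, was at 44.5 and 36.9 CPM in the acute libraries and at 8.92 to 27.2 CPM elsewhere, and at 607 CPM in the 58 cells gated as microglia. The part of microglial RNA in the acute colitis result was not tested.

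**Figure D4:**
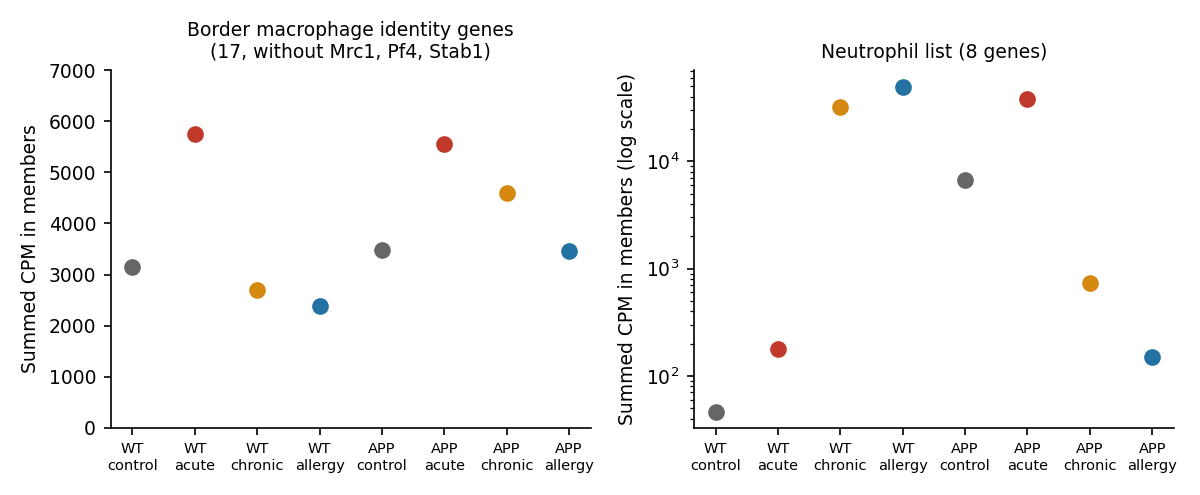
Summed CPM in the members (y axes) by library (x axes), for 17 border macrophage identity genes on a linear axis and for 8 neutrophil genes on a log axis. The identity genes are highest in WT acute and APP acute, at 5761 and 5546 CPM, whereas neutrophil RNA is high in WT chronic, WT allergy and APP acute and low in WT control.

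The 8 genes that fell in acute colitis included a costimulatory ligand, an Fc receptor and a gene of monocytes. Tnfsf9, the ligand of the T cell costimulator 4-1BB, was at 23.4 and 14.4 CPM in WT and APP acute colitis. It was at 141 and 104 CPM in the controls, 96.2 and 42.0 CPM in chronic colitis and 130 and 59.5 CPM in food allergy. It fell by 2.74 on the log2 scale (SE 0.28, edgeR adjusted p = 0.0137). Fcgr4 was at 66.1 and 76.9 CPM in acute colitis, 184 and 233 CPM in the controls and 78.7 to 146 CPM elsewhere, and fell by 1.54 (SE 0.19, edgeR adjusted p = 0.0244). Ms4a4c, a membrane protein of monocytes and T cells, was at 67.9 and 54.4 CPM against 74.1 to 211 CPM, and fell by 1.66 (SE 0.21, edgeR adjusted p = 0.0288). Sirpb1c, Klrb1b and Gpr171 fell as well, but each had a chronic colitis or allergy library within the range of the acute libraries. Gzmk, granzyme K of T cells, fell to 3.01 and 8.20 CPM from 53.7 and 43.7 CPM in the controls, and 98.3% of its UMIs were in the 215 cells with T cell or neutrophil RNA.

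Calca, which encodes calcitonin and the calcitonin gene-related peptide, had no UMI in either acute library. It was at 168 CPM in WT control and 47.9 CPM in APP control, and the acute libraries were at least 88.8-fold lower than the controls together, taking 3 UMIs over both acute libraries as the limit. Its 141 UMIs were in 14 cells, and 1 cell held 55.3% of them. Few cells thus carried this difference, and its edgeR adjusted p was 0.00509.

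**Figure D5:**
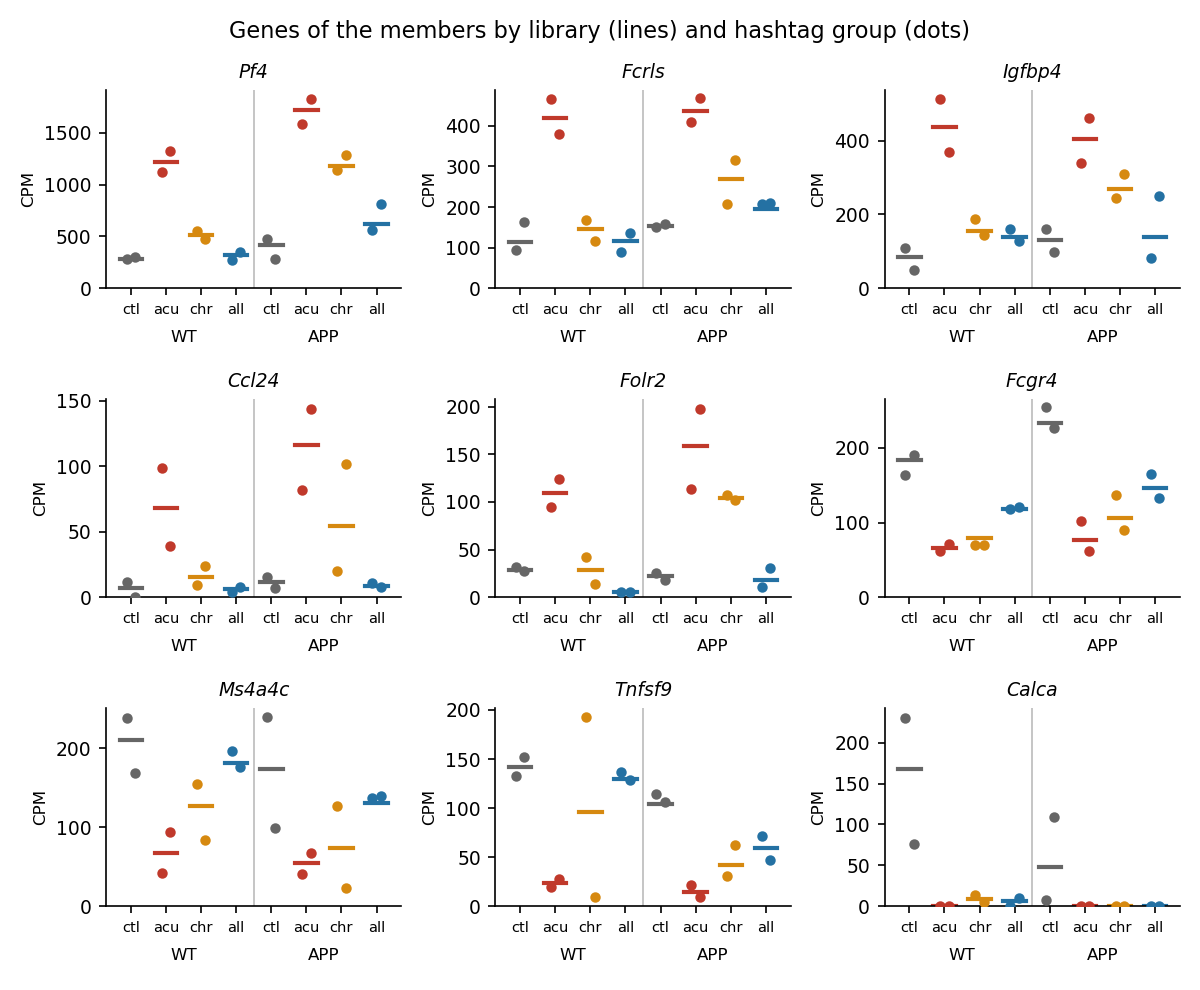
CPM (y axes) of 9 genes in the members, for WT on the left and APP on the right of each panel, in control (ctl), acute colitis (acu), chronic colitis (chr) and food allergy (all). Lines are libraries and dots the 2 high immediate-early hashtag groups of each. Pf4, Fcrls, Igfbp4, Ccl24 and Folr2 are highest in both acute libraries, and Fcgr4, Ms4a4c, Tnfsf9 and Calca are lowest there, Calca shared at 0 with APP chronic and APP allergy. By hashtag group, the acute dots lie apart from all others for Fcrls and Igfbp4 alone, and the other genes overlap.

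In the list of monocyte-derived macrophage genes, 1 of 11 tested genes passed, Ms4a4c, and 3 had positive estimates, with a list median of -0.46. Of its 9 genes of at least 50 CPM, 4 were lower in both acute libraries than in the 6 others, against 5.32% of all 2744 genes. Without the 215 cells, 5 of the 11 passed, all lower, namely Fn1, S100a6, Chil3, Plac8 and Ms4a4c. The summed level of its 12 genes over all members did not show this in APP. It was at 1405 CPM in WT acute against 2462, 4783 and 4550 CPM in WT control, chronic and allergy, but at 2953 CPM in APP acute against 2660, 1804 and 2525 CPM in APP. Chil3, a secreted lectin of monocytes and neutrophils, was at 498 CPM in APP acute. Ccr2 was at 215 and 199 CPM in acute colitis and 277 to 410 CPM elsewhere, with an estimate of -0.73 (SE 0.24, edgeR adjusted p = 0.375). Cd209a had an estimate of -1.56 with an edgeR adjusted p of 0.0566. Among 18 chemokines and receptors, Ccl24 alone passed. Ccl9 and Ccl6, macrophage chemokines, had estimates of -1.23 and -1.51 (edgeR adjusted p = 0.0784 and 0.146), and both passed as lower without the 215 cells.

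Of the 10 tested genes of the MHC class II pathway that the gate did not use, 0 passed in edgeR, and the median was 0.04. Ifi30, a lysosomal thiol reductase, was at 451 and 417 CPM in acute colitis and 472 to 726 CPM elsewhere (edgeR adjusted p = 0.348), and it passed with sums per hashtag group (edgeR adjusted p = 0.0198). H2-Aa was at 9723 CPM in WT control and 10858 in WT acute, and at 9325 in APP control and 9657 in APP acute. Cd74 was at 29003 and 31311 CPM in WT control and acute and at 30602 and 30690 CPM in APP. Ciita was at 68.0 and 140 CPM in WT and at 95.8 and 81.0 CPM in APP. H2-Aa, H2-Ab1 and H2-Eb1 chose the members, which limits how far they could fall. Cd74 was not used, and its estimate was 0.06 (SE 0.14). No gene of the complement, lipid handling, scavenger receptor, cytokine, type I interferon, interferon gamma, immediate-early and transcription factor lists passed over all members. Without the 215 cells, Itgam (complement) and Il1b passed as lower, and Lpl (lipid handling), Cd36 (scavenger receptors) and Igf1 (cytokines) as higher. Those 5 also passed with sums per hashtag group, as did Ctsb as higher and Cd14 as lower. Igf1, which encodes a growth factor, was at 207 and 162 CPM in acute colitis and 25.4 to 104 CPM elsewhere, with an edgeR adjusted p of 0.123 over all members and 0.00691 without the 215 cells. Lpl, the lipoprotein lipase, was at 80.5 and 83.1 CPM in acute colitis and at 12.5 to 151 CPM elsewhere.

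Chronic colitis and food allergy gave 0 calls each among 7417 genes in edgeR, with 431 and 306 genes at an unadjusted p under 0.05. No list had a member called. DESeq2 called 10 genes in chronic colitis and 1 in food allergy. The border macrophage identity genes were uneven here. Pf4 was at 1176 CPM in APP chronic, above APP control, and at 511 CPM in WT chronic. Folr2 was at 104 CPM in APP chronic and 28.4 CPM in WT chronic, against 22.6 and 28.6 CPM in the controls. Ly6a, the stem cell antigen Sca-1, was at 111 and 104 CPM in chronic colitis and 268 and 352 CPM in the controls. Its edgeR adjusted p was 0.344 over all members and 0.0201 without the 215 cells. Calca, seen in 14 cells, had an edgeR adjusted p of 0.208 in chronic colitis, and 0.00153 without the 215 cells. In food allergy it had the smallest edgeR adjusted p, 0.0511, and 0.000184 without the 215 cells. Igkv10-94, an immunoglobulin segment, followed, and 1 cell held 90.4% of its UMIs. Cstdc4, a cystatin-domain gene, was seen in WT chronic and WT allergy alone, in 10 cells, all of them among the 215.

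Between genotypes, 1 gene of 7417 (0.0135%) passed. Trbv15, a T cell receptor segment, was at 19.8 to 32.7 CPM in the APP libraries and 0 to 0.601 CPM in the WT libraries (edgeR adjusted p = 0.0203). All of its 72 UMIs were in 10 cells, each among the 215 with T cell or neutrophil RNA. Gadd45b, a stress-induced gene, was at 54.4 to 97.3 CPM in the APP libraries and 127 to 363 CPM in the WT libraries, without overlap, and its edgeR adjusted p was 0.0779. Without the 215 cells 9 of 6156 genes passed (0.146%), 2 higher (0.0325%) and 7 lower (0.114%), and Gadd45b was among the lower ones with an edgeR adjusted p of 0.0230. Ccrl2, a non-signalling chemokine receptor, was at 44.6 to 124 CPM in APP and 121 to 254 CPM in WT, with an edgeR adjusted p of 0.132, and 0.0230 without the 215 cells.

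Of the 16 tested border macrophage identity genes that the gate did not use, 15 were higher in APP by estimate and 0 passed in edgeR, with a median of 0.44 against 0.01 over all genes. Of 10 ungated MHC class II pathway genes 7 were higher and 0 passed, with a median of 0.16, and of 0.02 without the 215 cells. Cd74 was at 24584 to 31311 CPM in WT and 30602 to 38071 CPM in APP, an estimate of 0.25 (SE 0.10). All 10 immediate-early genes were lower in APP by estimate, with a list median of -0.29, and 0 passed. Nr4a1, which encodes a nuclear receptor, was at 252 to 311 CPM in WT and 68.4 to 223 CPM in APP, without overlap. It had an edgeR adjusted p of 0.423 over all members and 0.0207 without the 215 cells. With sums per hashtag group its edgeR adjusted p was 0.0362, where 18 of 4959 genes passed (0.363%), 3 higher (0.0605%) and 15 lower (0.302%). The members' summed immediate-early level was 11489 to 16766 CPM in WT and 10175 to 12815 CPM in APP, and the part of handling in it was not tested. Of 16 tested genes for lipid handling and plaque-associated states, 14 were higher by estimate and 0 passed, with a list median of 0.15. Trem2, a lipid receptor, was at 153 to 235 CPM in WT and 141 to 259 CPM in APP. Spp1, osteopontin, was at 8.74 to 46.4 CPM in WT and 11.3 to 46.9 CPM in APP, and Gpnmb at 0 to 4.94 CPM in all libraries. Apoe was at 8656 to 17882 CPM in WT and 14328 to 16778 CPM in APP. App, the gene modified in the knock-in, was at 302 to 448 CPM in WT and 383 to 430 CPM in APP. The knock-in alters its sequence and not the gene's copy number, so this level does not check the labels.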

How the data were processed

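Cells came from 8 libraries, 1 per condition, so hashtag groups share their library and p-values between them measure the spread within libraries. The values are counts: per the labels and methods, the authors aligned reads with Cell Ranger 6.1.2 to the mouse genome mm10 and deposited unnormalised UMI counts of all barcodes per gene, while the header of the matrices names another version. Barcodes were kept with at least 500 gene UMIs, 200 genes, at most 5% mitochondrial UMIs, and a top hashtag count of at least 50 and 3 times the next. No doublet caller was run, and cells with RNA of other lineages were left out as an alternative. Counts of members were summed per library and fitted in edgeR 4.0.16 (quasi-likelihood, genotype and treatment as terms, Benjamini-Hochberg threshold 0.05). A run on simulated counts changed genes in APP alone, so it did not cover the treatment terms. Shares were compared by exact permutation tests in scipy 1.17.1 over hashtag groups of at least 200 cells, or 10 border macrophages for fractions, and their intervals are exact binomial. Ratios between classes used CPM with 5 added and genes of at least 50 CPM. Sub-clusters came from scanpy 1.11.5 (2000 variable genes, 20 components, 15 neighbours, Leiden resolution 0.5). DESeq2 1.42.0 was an alternative. The sequences are RefSeq windows on GRCm38.p6. Named genes were the members of the gene lists, and the 10 largest fold changes among called genes of a comparison or, where fewer than 5 passed, the 5 smallest p. They were also the 20 largest and 10 smallest ratios between classes without opposite signs between libraries, and the 5 leading genes of each sub-cluster. The members and lists were chosen with earlier results of these data known. Some listed genes are not reported here. Intervals cover counting error only.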

Additional observations from a re-analysis of the deposited data

Results flagged for a closer look

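The share of members moved in opposite directions in food allergy of the 2 genotypes. Within the high immediate-early hashtag groups, the share in WT allergy was higher than in WT control by 2.32 percentage points, and both allergy groups exceeded both control groups. In APP mice the allergy groups were both below the control groups, with a difference of -2.01 percentage points. The difference between these effects was not tested, and each rests on 2 hashtag groups of 1 library. Outlying hashtag groups were looked for in the 4 libraries with 4 groups of at least 200 cells, and 0 were marked, where chance alone would mark about 1 in 20. Each of these libraries held 2 high and 2 low groups, so that a single outlying group could hardly be marked.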

How the results depend on the processing

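With 1 library per condition, the replicate of a treatment is the other genotype, and the comparison over 4 pairs of libraries matches genotypes by treatment. Beyond those pairs, replicates could not be paired, since the labels give each group 1 sample. The fit of hashtag sums with an immediate-early covariate was not run, since all 16 groups lay in 1 set. For no result below was the cause tested. Genes called in APP against WT, acute colitis, chronic colitis and food allergy numbered 7, 38, 10 and 1 in DESeq2, and 90, 236, 90 and 96 without a filter on low counts. They numbered 18, 188, 11 and 0 with hashtag sums, and 2, 105, 11 and 3 without cells holding 2 or more UMIs of T cell, B cell or neutrophil genes. They numbered 9, 125, 6 and 1 without the 215 cells, an alternative added after seeing the data, and 0, 28, 0 and 1 with a cutoff of 0.4%. RLE normalization gave 1 gene in food allergy. Leaving out 1 library gave 0 to 20, 1 to 83, 0 to 9 and 0 to 10 genes. For the share of members, the difference between APP and WT control turned to -0.0716 without cells holding UMIs of other lineages. Leaving out 1 hashtag group moved it from -0.659 to 1.12, and moved WT chronic from -1.09 to 0.199, APP chronic from -1.27 to 0.508 and APP allergy from -1.74 to 0.0325 percentage points. For the MHC class II-high fraction, WT chronic turned to -0.495 without cells holding UMIs of other lineages. APP acute turned to -6.78 with a top hashtag 10 times the next, -10.1 without cells holding UMIs of other lineages, -7.72 without the 215 cells and -8.69 in the high groups alone. APP chronic turned to -3.04 and -1.15 without cells holding such UMIs and in the high groups alone. APP against WT control turned to 7.97, 7.17, 9.26 and 8.92 under the same 4 settings as APP acute. Leaving out 1 hashtag group gave -8.69 to 18.5 for APP acute, -1.15 to 26.1 for APP chronic and -18.3 to 8.92 for APP against WT control. Of the values for 15 named genes under alternatives, 162 kept their call and 56 lost it with the same direction.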
